A study of Mus musculus with 1 sample.

Results

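A set of 10 transcription factors with roles in the birth and identity of astrocytes was examined in cultured glia: Sox9, Sox8 and Sox2, Nfia, Nfib and Nfix, Zbtb20, Pax6, Hopx and Lhx2. They were chosen by gene symbol as astrocyte and neural progenitor fate factors, and each matched 1 of the 23282 rows of the expression table. The cells were mixed glia grown from the ventral midbrain (VM) of outbred ICR (CD-1) mouse pups at postnatal day 5. The single RNA-seq library available was labelled as control, and its column carried the name of the vehicle DMSO. The column name also began with mAst, which may stand for mouse astrocytes, whereas the study describes glial cultures that hold astrocytes and microglia. No genetic change was named for these cells, how many pups were pooled is not given in the sources used here, and inhibitor-treated glia were not analysed here. With 1 library there was no replicate check, no test and no error between cultures for any value below.

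In the developing nervous system, radial glia first give rise to neurons and later switch to making astrocytes. SOX9 is induced around this switch and in turn induces NFIA, and the 2 proteins then act together on astrocyte genes. Other factors on the list hold cells in a progenitor state (SOX2), pattern the neural tube (PAX6, LHX2) or promote astrocyte maturation (ZBTB20, NFIX). Many of them remain on in mature astrocytes, and some are also used outside the nervous system.

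Each row gave a whole number that the study terms a normalised read count, and the rows summed to 27569507. Rows at 10 or more were taken as detected, which held for 15648 of them. Sequencing depth is unknown, so neither a detection limit nor a counting interval is given. Because a long transcript yields more reads than a short one, each value was also divided by the summed length of the gene's exons and expressed per 1000000 of all such quotients. This second quantity is called the length-scaled level here, its unit is abbreviated LPM, and levels of different genes are compared on it. The order of the values as deposited is also described, and it is not corrected for gene length.

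All 10 factors were detected, against 67.2% of all rows. Their values ran from 200 for Lhx2 to 3410 for Sox9. The median over the 10 factors was 805.5, and the median over all detected rows was 469. Above this 469 lay 5 of the 10 factors, against 33.6% of all rows. Above the upper quartile of detected rows (1344.25) lay 3 of the 10, against 16.8% of all rows. The shares over all rows count undetected rows as well, which lie below both cut-offs, whereas all 10 factors were detected. The values, not corrected for gene length, fell into 2 ranges with a gap between them. Sox9, Nfix, Nfib, Sox2 and Nfia were at 1258 or more, while Pax6, Zbtb20, Hopx, Sox8 and Lhx2 were at 353 or less. The 5 higher factors held 88.0% of the summed value of the 10, which in all was 0.0429% of the table.

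On the length-scaled level 6 of the 10 factors were above the median of detected rows (9.68 LPM). The share over all rows with a known length, undetected rows included, was 33.8%. The highest factor was 73.7 times the lowest with the union of exons as gene length, 64.5 times with the longest transcript and 14.5 times with coding length. For the values this ratio was 17.1. The order on the union of exons was not that of the values. Sox9 stayed first, Sox2 moved from the fourth place to the second, Hopx from the eighth to the fourth, and Zbtb20 from the seventh to the last.

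**Figure D1:**
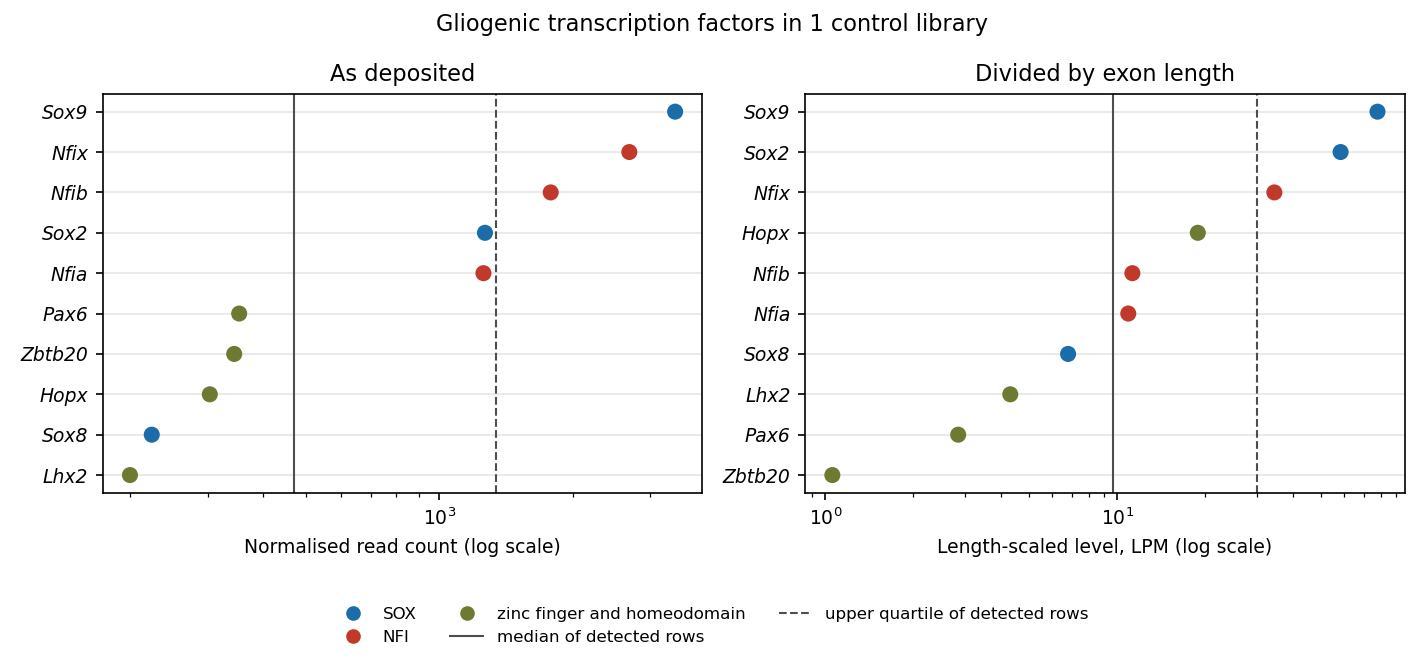
Values of the 10 factors as normalised read counts (left) and as length-scaled levels in LPM (right), both on log axes, 1 point per gene and coloured by family. The solid line is the median and the dashed line the upper quartile of detected rows; Sox9 is highest on both scales, whereas Hopx lies below the median on the left and above it on the right.

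Reads from paralogs can be confused where their transcripts are identical, so the longest identical stretch is shown first for some pairs of factors and close relatives. Such stretches bear on how far the levels of family members can be told apart, which also depends on the unknown read length. Sequences are from the GENCODE M21 transcripts on GRCm38, printed 5′ to 3′ on the transcribed strand, with the identical run in capitals and 8 flanking bases on each side in lower case. All the stretches shown lie in coding exons. The longest run was the 44 bases shared by Sox9 (exon 1, chr11:112782823-112782882, plus strand) and the oligodendrocyte and neural crest factor Sox10 (exon 2, chr15:79163422-79163481, minus strand).
Sox9: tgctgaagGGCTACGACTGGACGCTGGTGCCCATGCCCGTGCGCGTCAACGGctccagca
Sox10: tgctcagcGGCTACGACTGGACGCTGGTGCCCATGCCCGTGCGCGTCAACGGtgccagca

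Sox9 and Sox8, the pair of this subfamily among the 10 factors, shared at most 23 bases, in exon 2 of both genes (Sox9, chr11:112783856-112783894, plus strand, and Sox8, chr17:25568975-25569013, minus strand).
Sox9: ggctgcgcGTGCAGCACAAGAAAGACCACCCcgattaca
Sox8: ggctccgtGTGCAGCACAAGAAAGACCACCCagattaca

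Sox2 shared 38 bases with its relative Sox1, within the part that encodes the DNA-binding HMG box (Sox2, exon 1, chr3:34650600-34650653, and Sox1, exon 1, chr8:12396569-12396622, both plus strand).
Sox2: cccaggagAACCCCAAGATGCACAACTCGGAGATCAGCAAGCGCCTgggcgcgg
Sox1: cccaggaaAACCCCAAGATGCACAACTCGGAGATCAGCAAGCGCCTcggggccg

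Nfix and Nfic shared 32 bases in the part of exon 2 that encodes the DNA-binding domain (Nfix, chr8:84772195-84772242, and Nfic, chr10:81420678-81420725, both minus strand).
Nfix: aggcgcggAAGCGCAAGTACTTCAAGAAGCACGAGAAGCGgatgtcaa
Nfic: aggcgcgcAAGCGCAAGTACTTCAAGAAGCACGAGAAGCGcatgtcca

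No run between these paralogs reached 50 bases. Every window of 50 bases in the annotated transcripts of the 10 factors was then looked up in the transcripts of all other genes, on both strands. Sox9, Sox2, Nfia, Nfib and Lhx2 had 0 shared windows, so among annotated transcripts a fully matching read of that length belongs to 1 gene only. Zbtb20 shared 0.371%, Pax6 0.443% and Nfix 1.34% of their windows. Sox8 shared 8.99%, all of it with the antisense gene 2810468N07Rik, and Hopx shared 24.0%, all of it with the antisense gene Hopxos. The read length and the strand setting of the counting are not given in the sources used here, and the part of such antisense reads in the values of Sox8 and Hopx was not tested.

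Sox9, which directs astrocyte, cartilage and several other fates, had the highest value of the 10 factors. It lies on chromosome 11 (112782224 to 112787760, plus strand) and had a value of 3410, above 90.6% of detected rows. The length-scaled level was 77.9 LPM, above 88.9% of detected rows. Its close relative Sox8 (chromosome 17, 25565892 to 25570686, minus strand) had a value of 224 and a level of 6.79 LPM. The level of Sox9 was therefore 11.5 times that of Sox8. Exons of Sox8 overlap 2810468N07Rik on the opposite strand over 329 bases (10.6% of its exon length), and that gene had a value of 73. Sox10, the remaining member of the subfamily and a defining factor of oligodendrocytes, had a value of 48, and the level of Sox9 was 52.4 times that of Sox10.

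Sox2, which maintains neural stem cells and is also kept on in astrocytes, lies on chromosome 3 (34650405 to 34652461, plus strand). Its value was 1268, above 73.7% of detected rows. Its transcript of 2057 bases is short, and on the length-scaled level (58.2 LPM) it was above 85.6% of detected rows. The level of Sox9 was 1.34 times that of Sox2. The other members of the Sox2 subfamily, Sox1 and Sox3, had values of 301 and 34. The level of Sox2 was 9.90 times that of Sox1 (5.16 times with coding length) and 37.4 times that of Sox3.

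Across the 19 SOX genes, 16 were detected and 3 were above the median of detected rows. These 3 were Sox9, Sox4 and Sox2. Sox4, a factor of progenitors and immature cells in many tissues, had a value of 1333, and 54.6% of its exon length overlaps Gm26735 on the opposite strand, for which the table had no row. Sox14, Sox17 and Sox30 were listed at 0. The 3 SOX factors examined here held 71.1% of the summed length-scaled level of the 19 genes. The 16 other SOX genes had a median value of 111.5.

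The nuclear factor I (NFI) proteins bind DNA as dimers and act in the onset and maturation of astrocytes. Nfix (chromosome 8, 84699876 to 84800344, minus strand) had a value of 2687, Nfib (chromosome 4, 82290173 to 82705750, minus strand) of 1785, and Nfia (chromosome 4, 97772734 to 98118874, plus strand) of 1258. All 3 were thus above the median of detected rows. Their length-scaled levels were 34.5 LPM for Nfix, 11.3 for Nfib and 10.9 for Nfia. Nfix was 3.16 times Nfia on this scale, whereas Nfib was 1.03 times Nfia. Nfib was above Nfia with each of the 3 lengths tried below.

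Nfic, the remaining NFI gene, is known for its role in tooth root formation and is broadly expressed. It had a value of 3227 and a length-scaled level of 46.0 LPM. Nfic held 44.8% of the summed level of the 4 NFI genes, Nfix 33.6%, Nfib 11.0% and Nfia 10.6%. The share of Nfib was 17.4% when coding length was used. Nfia, the NFI protein tied most closely to the onset of gliogenesis, had the smallest share under each of the 3 lengths.

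Zbtb20, a zinc finger repressor that promotes astrocyte formation, lies on chromosome 16 (42875881 to 43642602, plus strand). Its value was 344, above 43.6% of detected rows. The 21 annotated transcripts cover 30730 bases of exon, the longest span among the 10 factors, and the length-scaled level was 1.06 LPM, above 12.2% of detected rows. With coding length (2223 bases) in place of exon length the level was 5.28 LPM. Zbtb20 was lowest of the 10 factors under all 3 lengths, but with coding length Sox8 (5.49 LPM) and Lhx2 (5.60 LPM) lay close above it.

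Pax6, a paired-domain factor of radial glia that patterns the forebrain and hindbrain, lies on chromosome 2 (105668900 to 105697364, plus strand). Its value was 353, above 44.1% of detected rows, and its length-scaled level was 2.85 LPM. The choice of transcript mattered for this gene. The level was 5.80 LPM with the longest of its 26 transcripts and 9.21 with coding length. Among the 9 PAX genes, 6 were detected and none was above the median of detected rows. Pax1, a factor of the sclerotome and thymus, had a value of 379, and the dorsal neural tube and neural crest factor Pax3 had a value of 366. On the length-scaled level Pax6 was 0.510 times Pax3 with the union of exons, 0.842 times with the longest transcript and 1.07 times with coding length, so their order depended on the length used. Pax2, Pax7, Pax8 and Pax9 ran from 7 to 89, and Pax4 and Pax5 were listed at 0.

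Hopx, an atypical homeodomain protein that does not bind DNA itself and marks certain astrocyte-producing progenitors, lies on chromosome 5 (77086988 to 77115121, minus strand). Its value was 303, above 40.9% of detected rows. It is the shortest of the 10 genes, with 1516 bases of exon and 219 coding bases, and its length-scaled level of 18.9 LPM was above 65.4% of detected rows. On this scale Hopx was 1.73 times Nfia. It was 6.62 times Pax6, and 3.01 times Pax6 with the longest transcript as gene length. A stretch of 412 bases (27.2% of its exon length) overlaps Hopxos on the opposite strand, and the table had no row for Hopxos.

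Lhx2, a LIM homeodomain factor that specifies cortex, hippocampus and eye, lies on chromosome 2 (38339281 to 38369733, plus strand). It had the lowest value of the 10 factors, 200, above 33.7% of detected rows, and a length-scaled level of 4.30 LPM. Of 12 LIM homeodomain genes, 8 were detected and 1 was above the median of detected rows. That gene was Lhx5, a factor of forebrain and spinal cord development, with a value of 2244 and a level of 78.8 LPM. The paralog closest to Lhx2, Lhx9, had a value of 237, and the level of Lhx2 was 1.82 times that of Lhx9 with the union of exons but 0.825 times with coding length. Lhx6 had a value of 165. Lmx1a and Lmx1b, which pattern the ventral midbrain, had values of 46 and 39, Isl1, Lhx4, Lhx8, Lhx1 and Isl2 ran from 2 to 12, and Lhx3 was listed at 0.

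**Figure D2:**
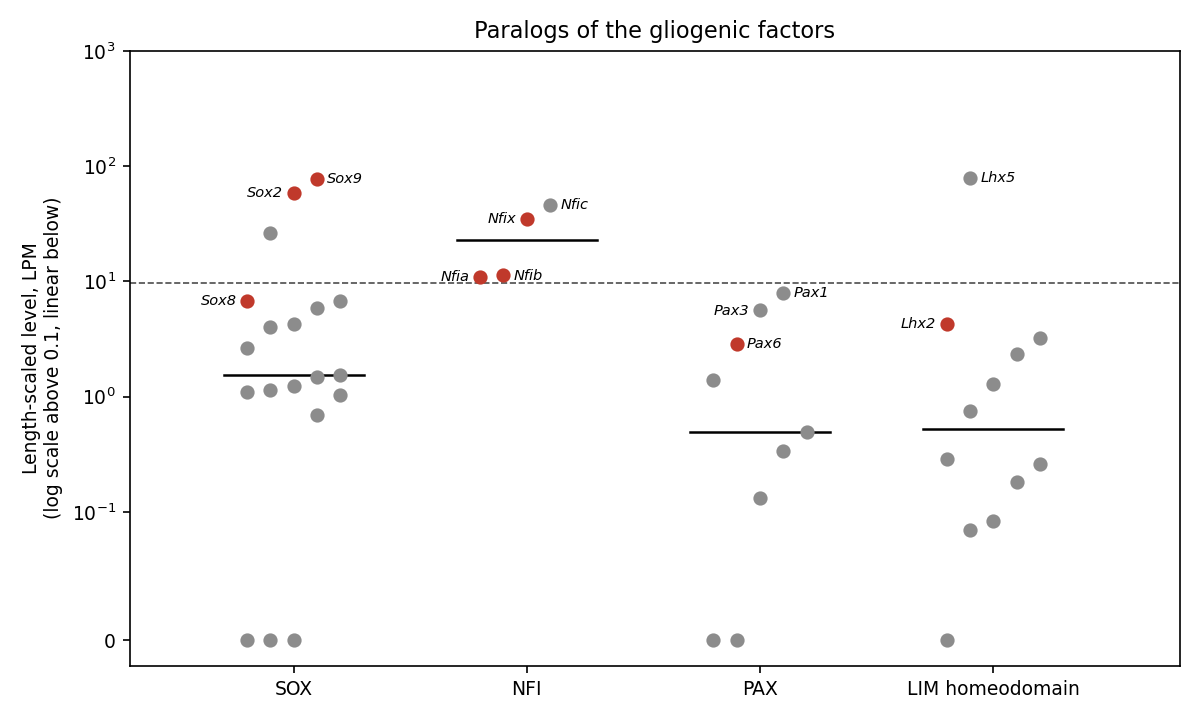
Length-scaled level in LPM of every gene of the SOX, NFI, PAX and LIM homeodomain families (1 point per gene, the examined factors in red, horizontal bars for family medians, the dashed line for the median of detected rows; the axis is logarithmic above 0.1 and linear below). Sox9 and Sox2 lead the SOX family, Nfic lies above the 3 examined NFI genes, and Lhx5 at 78.8 stands far above Lhx2 at 4.30.

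The order of the 10 factors depended in part on which gene length was used, since the annotated exons need not match the transcripts present in these cells. Sox9 was first and Zbtb20 last with the union of exons, the longest transcript and the coding length, although Zbtb20 only narrowly so with coding length. On coding length Nfix (61.9 LPM) and Hopx (47.2 LPM) both lay above Sox2 (45.2 LPM), which was second with the other lengths. Sox8, Lhx2 and Pax6 lay between 2.85 and 9.21 LPM over the 3 lengths, and their order differed from one length to the next. With no replicate, the spread of any of these levels between cultures is unknown.

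**Figure D3:**
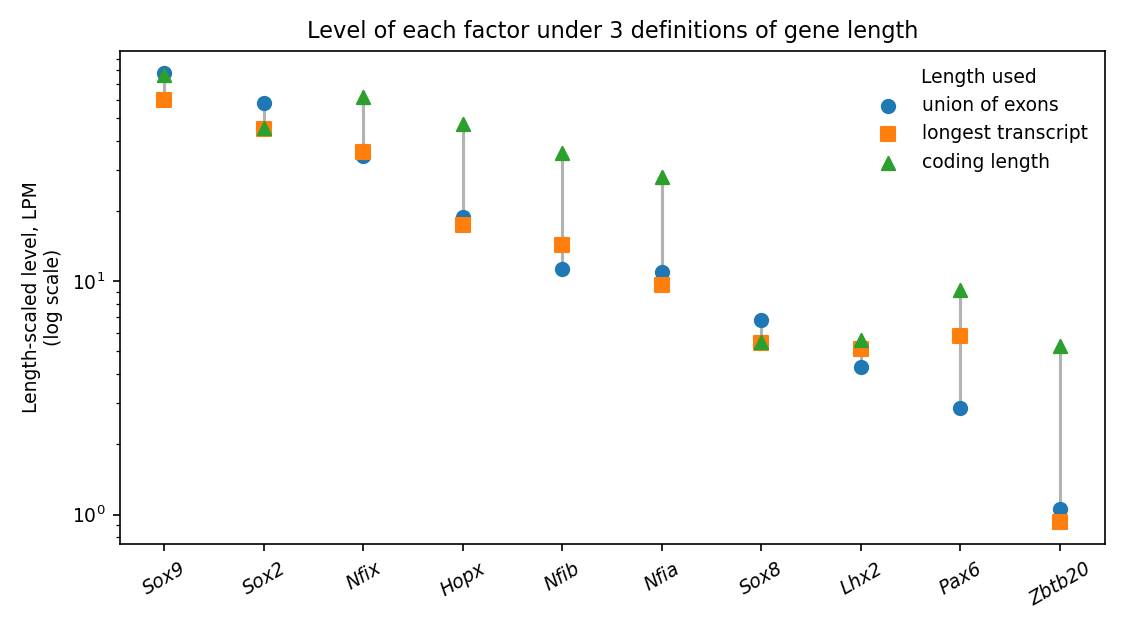
Length-scaled level in LPM (log axis) of each factor with 3 definitions of gene length: circles, union of exons; squares, longest transcript; triangles, coding length. Sox9 ranges from 60.0 to 77.9 and stays first. Zbtb20 ranges from 0.930 to 5.28, the widest range of the 10 on the log axis, and stays last, narrowly so with coding length.

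The NFIA and SOX9 proteins act on a set of astrocyte genes, and 9 such genes were taken as a list. All 9 were detected, with a median value of 1850, and 8 of the 9 were above the median of detected rows. The intermediate filament gene Gfap had a value of 17222, the water channel gene Aqp4 of 5049, and the radial glial fatty acid binding protein gene Fabp7 of 3322. Aldh1l1 had a value of 2523, Slc1a3 of 1850 and S100b of 604. The 3 genes described as joint targets of NFIA and SOX9 had values of 1164 for Zcchc24, 488 for Mmd2 and 360 for Apcdd1. On the length-scaled level Gfap was 4.95 times Sox9 (7.89 times with the longest transcript), and the 9 genes ran from 2.64 LPM for Apcdd1 to 386 for Gfap.

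Another 24 gliogenic regulators, only some of them acting in Notch, BMP, STAT or FGF signalling, were set beside the 10 factors. Of these, 23 were detected, their median value was 441.5, and 12 were above the median of detected rows. The 3 highest values were those of the ETS factor Etv4 (7548), the BMP-induced inhibitor Id2 (6320) and Stat3 (4146), which relays gliogenic cytokines. Their length-scaled levels were 230 LPM for Etv4, 245 for Id2 and 41.1 for Stat3, beside 77.9 for Sox9. On that scale Id3 and Id1, relatives of Id2 named here after their values were seen, also lay above Stat3, at 151 and 140.5 LPM. The lowest value was that of the Notch target Hes5 at 5, under the detection minimum.

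The culture was mixed, so factors of other lineages were examined as well. The 7 microglia factors had a median value of 2910, and 6 of them were above the median of detected rows. Spi1, the master factor of myeloid cells, had a value of 6539, Irf8 of 4222, Cebpa of 3082, Runx1 of 2910, Mef2c of 2830, Ikzf1 of 911 and the microglial identity factor Sall1 of 290. On the length-scaled level Sox9 was 0.340 times Spi1. The 8 oligodendrocyte factors had a median value of 301. Zfp488 was at 2368, Tcf7l2 at 839, Olig1 at 687, Nkx6-2 at 340, Olig2 at 262, Myrf at 231, Nkx2-2 at 151 and Sox10 at 48.

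Mesenchymal factors, of which 10 of 11 were detected, had a median value of 185. Prrx1 was at 1714, Twist1 at 1332, Tbx18 at 617, Foxc1 at 385, Osr1 at 207 and Snai2 at 185. On the length-scaled level Twist1 was the highest of the 11 at 77.3 LPM, beside 14.6 for Prrx1 and 77.9 for Sox9. Foxf2, Twist2, Foxc2 and Foxd1 ran from 37 to 110, and Tcf21 was listed at 0. Of 18 proneural and neuronal factors 12 were detected, and the median value of the 18 was 37. Insm1 was at 321, Bcl11b at 161 and Fezf2 at 152, and the proneural genes Neurog1 and Neurog2 were listed at 0. With the union of exons as gene length, the median length-scaled level was 11.1 LPM for the 10 gliogenic factors and 7.25 for the 24 other gliogenic regulators. It was 22.9 LPM for microglia factors, 9.41 for oligodendrocyte factors, 6.22 for mesenchymal factors and 1.17 for proneural and neuronal factors. With coding length, Nfib and Nfia, in the middle of the 10 factors, were at 35.6 and 28.1 LPM. The other lists were not computed with that length, so whether the order of the lists depends on gene length was not tested.

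**Figure D4:**
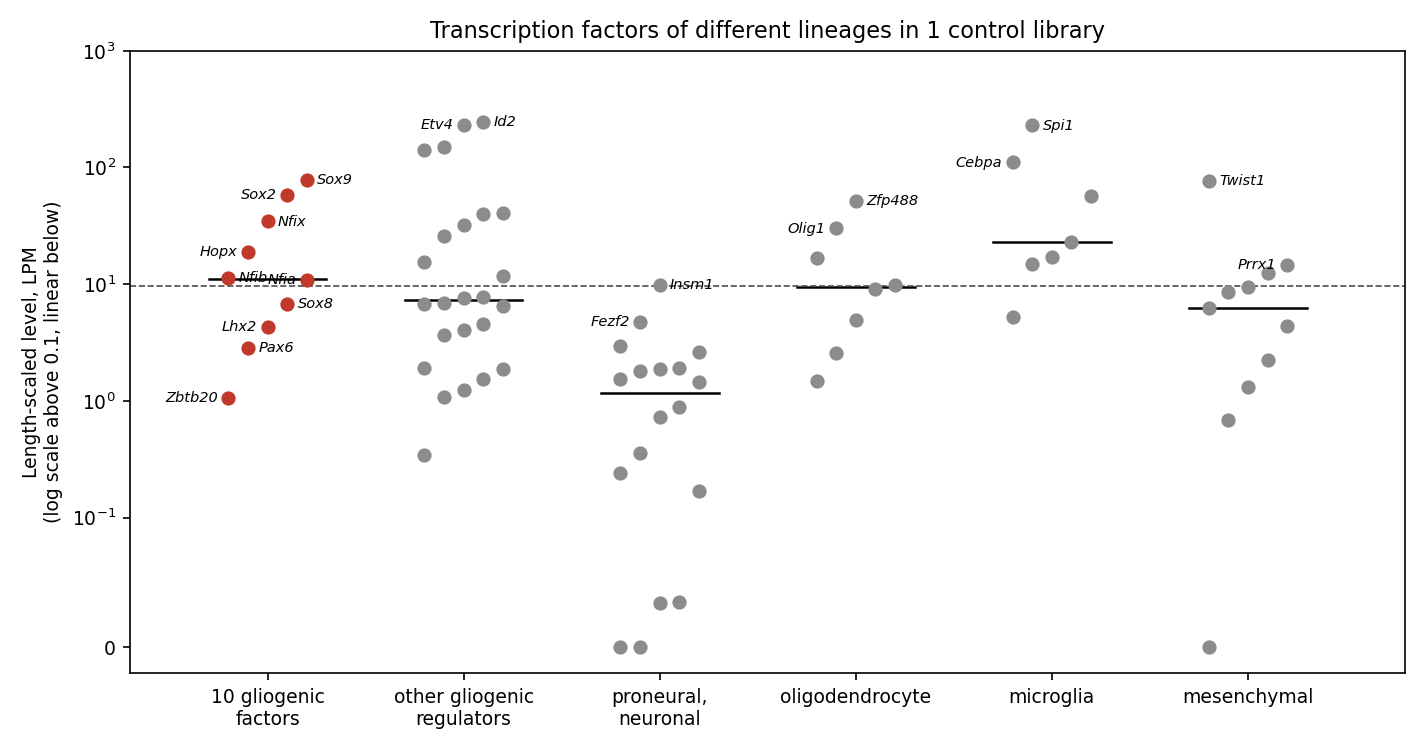
Length-scaled level in LPM of transcription factors grouped by lineage (1 point per gene, the 10 gliogenic factors in red, horizontal bars for list medians, the dashed line for the median of detected rows; the axis is logarithmic above 0.1 and linear below). The microglia factors have the highest median (22.9) and the proneural and neuronal factors the lowest (1.17), with the 10 gliogenic factors spread from 1.06 to 77.9. Levels use the union of exons as gene length, and the order of the medians with other lengths was not tested.

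Genes of neural progenitors were also detected beside Sox2. All 9 were at 10 or more, against 67.2% of all rows, and their median value was 507. The intermediate filament gene Nes was at 9126 and the matrix gene Tnc at 6751, while Ptprz1 was at 1257, Prom1 at 507 and Msi1 at 432. The Notch ligand gene Dll1 was at 17. The median length-scaled level of the 9 genes was 7.04 LPM, below the 9.68 LPM of detected rows. On that scale 3 of the 9 were above the median of detected rows, against 33.8% of all rows with a known length. Among the genes named beside the 10 factors and Sox4, more than 10% of the exon length overlapped a gene on the opposite strand for Twist2, Hes5, Tbx18, Dll1, Sox17, Nkx6-2 and Aldh1l1.

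The labelled glial identity was checked against marker genes of the cell types such a culture can hold. Of 10 astrocyte markers 9 were detected, Gjb6 at 4 being the exception, and together they held 1436 per 1000000 of all values. All 10 microglia markers were detected and held 6635 per 1000000, and all 8 mesenchymal markers held 5814. The 7 oligodendrocyte markers held 1290, the 5 ependymal markers 238, the 8 neuron markers 196 and the 6 endothelial markers 95.2 per 1000000. Single genes made up most of these last 2 sums, with Stmn2 at 138 of the neuronal and Flt1 at 88.0 of the endothelial sum. Fn1 alone was likewise at 3473 of the mesenchymal sum. None of these sums is corrected for gene length. Summed as length-scaled levels, the markers came to 8896 LPM for microglia, 2386 for mesenchymal cells, 800.5 for astrocytes and 564.4 for oligodendrocytes. The sums were 443.8 LPM for ependymal cells, 85.26 for neurons and 19.89 for endothelial cells. The study describes such cultures as holding more GFAP-positive astrocytes than Iba1-positive microglia. Sums of marker RNA are not shares of cells and do not give the makeup of the culture. NFI and SOX genes are known in several of these cell types, and the part of each in the values of the 10 factors was not tested. In RNA from a mixed culture, fewer cells of a type and less RNA per cell cannot be told apart.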

How the data were processed

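The library was made from Trizol-extracted total RNA with a SMARTer kit. Per the study's methods, the authors trimmed low-quality bases, mapped reads to GRCm38/mm10 with STAR and ran HTSeq-count on the exons of RefSeq Release 105. The submitters' processing notes name TopHat and edgeR instead, so the aligner is uncertain. The deposited values are whole numbers, treated here as a score because the authors counted reads per gene and describe the result as normalised. The methods also mention FPKM, which is already corrected for length. The value times exon kilobases summed to 127221453 over the rows with a known length, against 1000000 for FPKM, so the values were not taken as FPKM. The normalisation is not given in the sources used here, and no count model was applied. A different normalisation would rescale all values and, if it acted by gene, change ranks.

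Gene models, exon lengths and transcript sequences came from GENCODE M21 (GRCm38), not the authors' RefSeq set, and 22867 rows (98.2%) matched by symbol or RefSeq synonym. Rows at 10 or more were called detected. The alternatives were minima of 1, 3 and 100, other gene lengths, other sums, protein-coding genes only, and leaving out the 35 symbols with more than 1 row. The factors and gene lists were chosen with earlier results of these data known. Some planned genes are not reported here and were left out of their lists. The text could name the 10 factors, genes overlapping their exons, every gene of a list with at most 12 genes, and from longer lists the 3 highest, the lowest and any at 0. Scripts were tested on simulated data and used Python 3.11.15, numpy 2.4.6, pandas 2.3.3 and matplotlib 3.10.9.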

Additional observations from a re-analysis of the deposited data

How the results depend on the processing

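The counts of factors were recomputed 17 times under the alternatives. All 10 factors were detected at each minimum tried, up to 100. The number above the median of detected rows was 5 to 7, and on the length-scaled level 4 to 6. Above the upper quartile of detected rows there were 5 factors instead of 3 with a minimum of 1 and with a minimum of 3, because a lower minimum admits more low rows and lowers the quartile. Levels per 1000000 of the sum stayed within 1.5 times when the 45S ribosomal RNA precursor Rn45s or the 10 highest rows were left out (20 of 20 checks). Length-scaled levels moved by over 1.5 times in 7 of 20 checks, 6 of them with coding length and 1, for Pax6, with the longest transcript. No paired analysis was possible because there was 1 library. The lack of a replicate and the unknown read depth limit each value to this library.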
